A study of Mus musculus with 4 samples.

Results

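The spliceosome genes described here are the protein-coding genes whose GENCODE symbols begin with Sf3a, Sf3b, Prpf or Lsm and a number, or with Snrp or U2af. Of 12390 genes in the deposited table, 46 met this rule. The annotation holds 50 such genes, and the other 4 (Lsm11, Lsm14b, Snrpn and U2af1l4) are absent from that table. The members were chosen by name and not by any measured value. All 46 passed the filter on low values, a mean of at least 1 RPKM (reads scaled to transcript length and to the reads of the library). Prpf40b passed it only through the knockout libraries, as its control mean was 0.794 RPKM.

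RNA was sequenced from hematopoietic stem cells of mice, gated by the surface pattern Lin-Sca-1+c-Kit+CD48-CD150+. The series' text spells the genotypes Ddx211fl/fl for the controls and Ddx211fl/fl,CAG-CreERT2 for the knockouts, while the sample titles read Ddx21_fl and Ddx21_CKO. Both groups therefore carry the floxed alleles, the controls are labelled WT although they are floxed without Cre, and Cre is driven by the CAG promoter, a ubiquitous driver that is not specific to stem cells. Each group has 2 libraries, and nothing in the labels says whether these came from separate animals, so p-values rest on the spread between these libraries, which may be technical. The main fit took this spread from the trend over genes of similar level, not from each gene alone. Age, inducer treatment and the deleted exons were not stated in those sources.

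The spliceosome removes introns from pre-mRNA. It is built from small nuclear ribonucleoproteins (snRNPs), each a small RNA wrapped in a ring of Sm proteins, or, for U6, of Lsm proteins. U1 and U2 recognise the ends of the intron, the U4/U6.U5 tri-snRNP then joins, and Prpf proteins drive the rearrangements that lead to catalysis. Mutations of SF3B1 and U2AF1 recur in human myeloid malignancies, which makes splicing of interest in blood stem cells. Not all members work in splicing: Lsm1 belongs to a cytoplasmic ring that promotes mRNA decapping, Lsm10 to the U7 snRNP of histone mRNA processing, Lsm14a to cytoplasmic mRNA granules, and Lsm12 is not a core splicing factor.

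By limma at an adjusted p under 0.05, no member of the 46 was called in either direction in the knockout libraries, while 3.33% of the 11742 tested genes were called higher and 0.86% lower. Before adjustment, 2 members had a p under 0.05, Lsm10 and Prpf40b. The p of Prpf40b is not independent of the filter, which this gene passed only through its knockout values. Voom on rescaled reads also gave 0 calls among the members, with 51 of 11734 tested genes called higher and 22 lower. The members' median log2 fold change was 0.14, against 0.31 for all tested genes, and 35 of the 46 lay below that overall median. The members ranged from -0.19 for Snrpe to 0.56 for both Lsm10 and Prpf40b. A p that misses the threshold does not show that a gene was unchanged, and the standard errors (SE) of the members' fold changes were between 0.16 and 0.34. These SE follow a gene's level, through the trend of spread on level, and not its own replicates.

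Ddx21, the targeted helicase gene, stood at 11.0 and 12.1 RPKM in the controls and at 6.196 and 6.60 RPKM in the knockouts. This was lower in both knockouts, but the log2 change of -0.76 (SE 0.30) did not pass the test (adjusted p = 0.158). It passed with voom on rescaled reads (adjusted p = 0.0297) and without knockout replicate 1 (0.0178), and over the other alternatives the adjusted p of Ddx21 was between 0.0964 and 0.957. The libraries held 55702497 and 62853208 recovered reads in control and 43240020 and 43198649 in knockout. The 10 stem cell markers were all listed, with summed levels of 216 and 276 RPKM in control, against 333 and 441 RPKM in knockout. The 10 neutrophil and granule markers summed to 68932 and 71457 RPKM in control and to 48699 and 31358 RPKM in knockout, and all 10 were called lower. The 6 osteoblast and stroma markers summed to 343 and 205 RPKM in control and to 4852 and 1296 RPKM in knockout, all 6 called higher. None of these 16 calls held after rescaling or quantile normalization, where 1 and 0 of all 11742 tested genes were called. After rescaling, all 10 granule markers still had both knockouts below both controls, as had 26.1% of all tested genes. Their median log2 fold change was then -1.33. All 6 osteoblast and stroma markers stayed above, as did 28.4% of all tested genes, with a median of 2.79. Erythroid markers overlapped between the groups in their sum (control 970 and 471 RPKM, knockout 848 and 452 RPKM), and 1 of the 7, Hbb-bs, was called lower. The B cell markers Igll1, Ebf1 and Pax5 and the T cell markers Cd3d, Cd3e, Cd3g, Cd4 and Cd8a were not found in the table by symbol. The listed B cell markers (4 of 7) summed to 22.8 and 18.6 RPKM in control, against 28.0 and 40.3 RPKM in knockout. Nkg7, from the T and NK cell list, was called lower, at 1228 and 1324 RPKM in control and 884 and 750 RPKM in knockout. By limma after rescaling, neither Nkg7 nor Hbb-bs was called (adjusted p = 0.339 and 0.312). In bulk RNA, fewer cells of a type and less RNA per cell cannot be told apart. What these shifts contribute to the spliceosome values was not tested.

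Promoters of 3 members are shown because they are from the lower and upper ends of the fold order (Snrpe and Lsm10) and from a start region shared with another measured gene (Prpf31, beside Tfpt). Each runs from 250 bases before to 50 after the RefSeq start in GRCm38.p6, 5′ to 3′ on the gene's strand, and capitals mark matches to the motifs searched. Snrpe is at chr1:133610231-133610530 (minus strand), Lsm10 at chr4:126096403-126096702 (plus strand) and Prpf31 at chr7:3629735-3630034 (plus strand).
Snrpe: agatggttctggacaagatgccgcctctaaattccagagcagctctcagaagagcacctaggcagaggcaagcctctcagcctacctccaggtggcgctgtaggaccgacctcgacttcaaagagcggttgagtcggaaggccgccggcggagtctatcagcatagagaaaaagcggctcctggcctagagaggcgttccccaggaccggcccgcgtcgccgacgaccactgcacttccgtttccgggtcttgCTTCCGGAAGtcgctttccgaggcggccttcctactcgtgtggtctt
Lsm10: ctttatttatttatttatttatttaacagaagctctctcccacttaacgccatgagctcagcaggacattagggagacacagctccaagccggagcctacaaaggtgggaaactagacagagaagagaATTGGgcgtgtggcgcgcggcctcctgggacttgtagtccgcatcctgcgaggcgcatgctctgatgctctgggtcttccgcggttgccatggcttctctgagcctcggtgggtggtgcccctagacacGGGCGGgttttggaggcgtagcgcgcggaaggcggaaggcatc
Prpf31: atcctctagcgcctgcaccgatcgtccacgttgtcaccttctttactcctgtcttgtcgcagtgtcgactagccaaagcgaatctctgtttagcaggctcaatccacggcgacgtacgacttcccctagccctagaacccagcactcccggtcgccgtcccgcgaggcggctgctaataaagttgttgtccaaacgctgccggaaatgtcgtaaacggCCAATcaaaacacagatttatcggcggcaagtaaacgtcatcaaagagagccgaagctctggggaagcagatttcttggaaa
The motifs searched on both strands were the TATA box TATAAA, the NF-Y motif CCAAT, the ETS motif CCGGAAG, the GC box GGGCGG, the YY1 motif ATGGCGGC and the NRF1 palindrome. A RefSeq promoter was matched for 36 of the 46 members (the first start listed per gene). CCGGAAG was in 14 of the 36, or 38.9%, against 20.6% of 8090 promoters of the other tested genes and 9.12% of all 27025 promoters. In Snrpe it matched on both strands of 1 overlapping stretch. Lsm10 held CCAAT and GGGCGG, and Prpf31 held CCAAT alone. The TATA box was in 2 members (5.56%, against 6.79% of other tested genes), CCAAT in 16 (44.4% against 39.9%), GGGCGG in 23 (63.9% against 64.9%), ATGGCGGC in 2 (5.56% against 5.67%) and the NRF1 palindrome in 0 (against 2.31%). The members' median GC content was 58.2%, against 60.7% for the other tested genes. A match is a description of letters and not a bound site.

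Of the 46 genes, 10 start head to head with a protein-coding neighbour, with starts at most 1000 bases apart, and 9 of these neighbours were measured. Prpf31, a tri-snRNP protein, starts 56 bases from Tfpt. Prpf31 stood at 29.4 and 31.4 RPKM in control and 30.51 and 41.3 RPKM in knockout, and Tfpt at 8.08 and 7.86 RPKM in control, against 10.52 and 17.1 RPKM in knockout. The log2 fold changes were 0.22 and 0.69, with an adjusted p of 0.188 for Tfpt. The Sm gene Snrpd2 had -0.01 and its neighbour Qpctl 0.75 (adjusted p = 0.230), while Lsm3 had 0.15 and its neighbour Xpc, a DNA repair gene, 0.01 (adjusted p = 0.969). None of the 9 neighbours was called, and both orders occurred, with the member above its neighbour for Lsm3, Prpf38a, Lsm1 and Prpf4.

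The levels in every library (plotted by gene and role) spanned from a mean of 1.25 RPKM for Prpf40b to 397 RPKM for Snrpb. The median member stood at 24.4 RPKM, against 6.48 RPKM for all tested genes. The deposited values divide by the longest annotated transcript, and for 10 members this is over 1.5 times the principal transcript, up to 6.21 times for Snrpc. Per principal transcript, Snrpc moves from 11.1 to 68.8 RPKM, Lsm8 from 20.9 to 85.5 RPKM and Prpf19 from 3.60 to 10.2 RPKM, so the order of levels between genes depends on the length used. A ratio of RPKM between libraries does not, and the pseudocount of 1 lets the length enter the log2(RPKM + 1) differences only of low genes. The smallest number of reads behind a value was 149, for Prpf40b in control replicate 1.

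**Figure D1:**
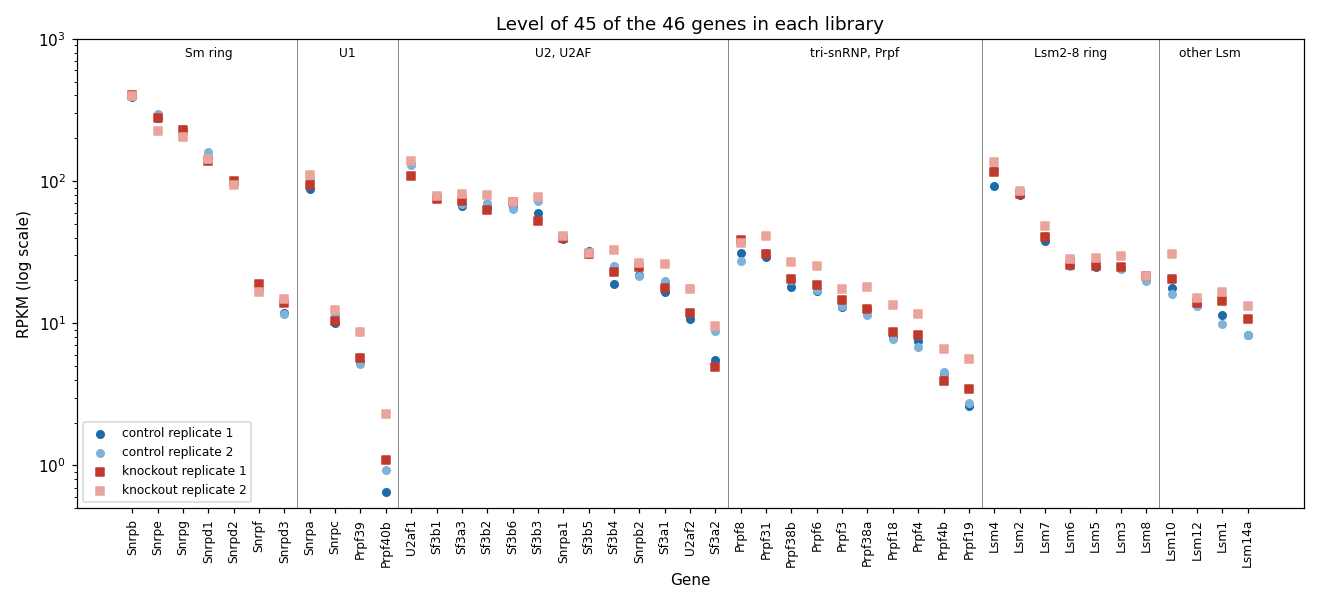
RPKM (log scale) of 45 of the 46 genes in each of the 4 libraries, in role groups and ordered by mean level; each point is 1 library. Snrpb is highest and Prpf40b lowest, and for most Prpf genes knockout replicate 2 lies above the other 3 libraries.

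The 7 Sm ring genes encode the proteins that close around U1, U2, U4 and U5 RNA. None was called, and their median log2 fold change was -0.01, with all 7 below the median of all tested genes. Snrpb, which encodes the B and B′ proteins, stood at 393 and 397 RPKM in control and at 401 and 399 RPKM in knockout (log2 fold change 0.02, SE 0.16, adjusted p = 0.946). The knockouts lay just above the controls as deposited, and below both controls after the rescaling described further on (log2 fold change -0.34). Snrpe stood at 277 and 295 RPKM in control and at 277 and 226 RPKM in knockout (log2 fold change -0.19, SE 0.16, adjusted p = 0.480). Its low value was in knockout replicate 2, and knockout replicate 1 fell within the control range. Snrpert, a processed copy of Snrpe that is not protein-coding, stood at 70.3 and 76.0 RPKM in control and at 70.5 and 60.5 RPKM in knockout, so reads of Snrpe and its copy may be split. Snrpg showed the same order of libraries, with 228 and 232 RPKM in control and 229 and 205 RPKM in knockout. Snrpd1 stood at 148 and 159 RPKM in control and 139 and 143 RPKM in knockout (log2 fold change -0.12, SE 0.17, adjusted p = 0.629). It was the 1 member of 46 with both knockout libraries below both controls, or 2.17%, against 7.38% of all tested genes. Snrpd1, Snrpd2, Snrpf and Snrpg also have near-identical copies in the table, so their reads may be split too. Snrpd3, which shares exon sequence with Gucd1, had the highest fold change of the ring (0.28, SE 0.27, adjusted p = 0.511), at 11.8 and 11.6 RPKM in control and 13.9 and 14.9 RPKM in knockout. Although the ring holds its proteins in equal numbers, their RNA levels ran from 13.0 RPKM for Snrpd3 and 17.4 RPKM for Snrpf to 397 RPKM for Snrpb.

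The U1 group holds Snrpa and Snrpc, proteins of the U1 snRNP, and partners such as Prpf39 and Prpf40b, which act with U1 at the start of the intron. Its 5 genes gave 0 calls. Snrpa stood at 88.5 and 103 RPKM in control and at 93.4 and 111 RPKM in knockout (log2 fold change 0.09, SE 0.18, adjusted p = 0.733), with overlapping groups. Snrpc stood at 10.1 and 11.6 RPKM in control and at 10.3 and 12.3 RPKM in knockout (log2 fold change 0.05, SE 0.28, adjusted p = 0.898), also overlapping. Prpf40b stood at 0.654 and 0.935 RPKM in control and at 1.09 and 2.31 RPKM in knockout (log2 fold change 0.56, SE 0.27, adjusted p = 0.290), higher in both knockouts. Only the knockout values carried this gene past the filter of 1 RPKM, so its direction is not independent of that filter. The log2 fold change of Prpf39 was 0.37 (SE 0.32, adjusted p = 0.482), with 5.38 and 5.14 RPKM in control and 5.74 and 8.72 RPKM in knockout. Prpf39 shares exon sequence with Fkbp3.

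The U2 group of 13 genes holds the SF3A and SF3B complexes, which anchor U2 at the branch point, the U2 proteins Snrpa1 and Snrpb2, and the U2AF pair that reads the end of the intron. It had 0 calls and a median log2 fold change of 0.06, with 12 of 13 below the median of all tested genes. Sf3b1, the large SF3B scaffold, stood at 78.5 and 76.0 RPKM in control and at 74.4 and 78.8 RPKM in knockout (log2 fold change -0.01, SE 0.18, adjusted p = 0.965). U2af1, which binds the AG at the end of the intron, stood at 131 and 129 RPKM in control and at 109 and 137 RPKM in knockout (log2 fold change -0.09, SE 0.17, adjusted p = 0.723). The knockout libraries lay on either side of the controls for both genes. Near-identical copies of U2af1 are in the table, so reads of U2af1 may be split. U2af2, its partner on the polypyrimidine tract, varied more between replicates than between groups, with 10.8 and 17.7 RPKM in control and 11.8 and 17.5 RPKM in knockout. Sf3b3 stood at 59.2 and 72.2 RPKM in control and at 52.5 and 77.1 RPKM in knockout, so the 2 knockout libraries enclosed the controls. Sf3b4 had the highest fold change of the group (0.31, SE 0.23, adjusted p = 0.425), at 19.0 and 25.3 RPKM in control and 22.9 and 32.9 RPKM in knockout. Sf3b5 and Sf3b6, small SF3B subunits, had log2 fold changes of -0.02 and 0.13. Sf3a1, Sf3a2 and Sf3a3 had 0.23, -0.02 and 0.17, where Sf3a2 shares exon sequence with Plekhj1 and Sf3b3 with Cog4.

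The 10 tri-snRNP and catalytic Prpf genes had a median log2 fold change of 0.31, equal to that of all tested genes, with 5 above it and 5 below and 0 called. Prpf8, the U5 protein at the core of the catalytic centre, stood at 31.3 and 27.3 RPKM in control and at 38.7 and 36.5 RPKM in knockout (log2 fold change 0.35, SE 0.21, adjusted p = 0.369). As deposited it was higher in both knockouts (the groups overlapped after rescaling), with knockout replicate 1 above knockout replicate 2, the reverse of the other 9 genes of the group. The ratio of Prpf8 to Sf3b1 within a library, which no library scaling can move, was 0.399 and 0.359 in control and 0.520 and 0.463 in knockout. Prpf19, the ubiquitin ligase of the complex that joins at activation, stood at 2.64 and 2.76 RPKM in control and at 3.43 and 5.58 RPKM in knockout (log2 fold change 0.55, SE 0.34, adjusted p = 0.381). Prpf4b, a kinase of the tri-snRNP, had the lowest value (0.16, SE 0.33, adjusted p = 0.749), at 4.45 and 4.51 RPKM in control and 3.93 and 6.57 RPKM in knockout. Prpf38a and Prpf38b had 0.30 and 0.29, and their ratio was 0.704 and 0.568 in control and 0.614 and 0.666 in knockout, which overlapped. Prpf3, Prpf4, Prpf6 and Prpf18 had 0.27, 0.40, 0.32 and 0.42.

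The Lsm2 to Lsm8 ring binds the end of U6 RNA. Its 7 genes had 0 calls, a median log2 fold change of 0.08, and all 7 lay below the median of all tested genes. Lsm4 was the most abundant per longest transcript and had the highest fold change of the ring (0.24, SE 0.17, adjusted p = 0.430), at 93.0 and 122 RPKM in control and 117 and 136 RPKM in knockout. Lsm6 had the lowest (0.00, SE 0.22, adjusted p = 0.9999), at 28.4 and 25.4 RPKM in control and 25.6 and 28.1 RPKM in knockout. In both genes the groups overlapped.

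The other 4 Lsm genes had a median log2 fold change of 0.49, with 3 of 4 above the median of all tested genes and 0 called. Lsm10 of the U7 snRNP stood at 17.6 and 16.0 RPKM in control and at 20.6 and 30.7 RPKM in knockout (log2 fold change 0.56, SE 0.24, adjusted p = 0.208), the smallest adjusted p of the 46. Its fold change was level with that of Prpf40b, which was the higher of the pair, relative to all genes, with a pseudocount of 0.1 (0.57 against 0.22). Lsm1 stood at 11.4 and 9.96 RPKM in control and at 14.3 and 16.6 RPKM in knockout (log2 fold change 0.50, SE 0.27, adjusted p = 0.330). Lsm14a stood at 8.29 and 8.23 RPKM in control and at 10.7 and 13.2 RPKM in knockout (log2 fold change 0.48, SE 0.29, adjusted p = 0.369). Lsm12 stood at 13.8 and 13.2 RPKM in control and at 14.0 and 15.1 RPKM in knockout (log2 fold change 0.10, SE 0.26, adjusted p = 0.803). In all 4 genes both knockouts lay above both controls, as in 55.5% of all tested genes. After rescaling Lsm12 turned to both knockouts below, and the other 3 stayed above, as did 28.4% of all tested genes. The ratio of Lsm1, of the decapping ring, to Lsm8, its counterpart in the U6 ring, was 0.554 and 0.4998 in control and 0.669 and 0.770 in knockout, and these groups did not overlap. With 2 libraries against 2, an exact permutation test of such a ratio cannot give a two-sided p below 0.333.

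**Figure D2:**
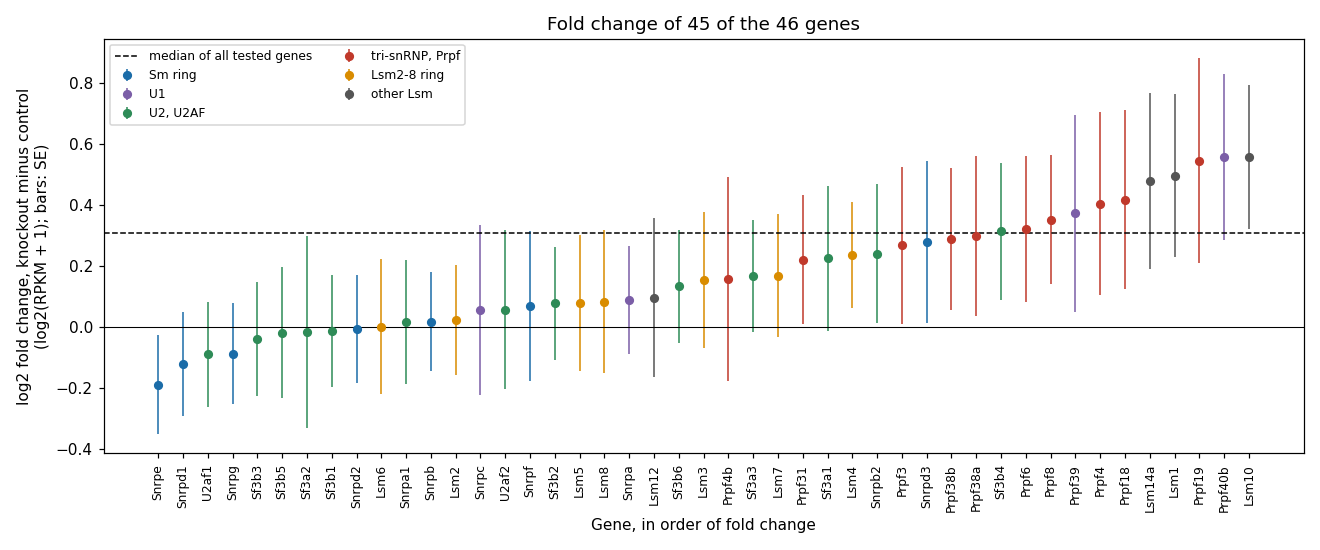
Log2 fold change (knockout minus control, on log2(RPKM + 1)) of 45 of the 46 genes in order, coloured by role. Bars are 1 SE, taken from the trend of spread on level. The dashed line is the median of all tested genes at 0.31. Most Sm, U2 and Lsm2 to Lsm8 genes lie between the zero line and the dashed line or below zero, and Prpf and the other Lsm genes take most of the right end.

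The fold changes rest unequally on the knockout libraries. Against the control mean, the median member stood 0.04 higher in knockout replicate 1 and 0.29 higher in knockout replicate 2 on the log2 scale, and the median of all tested genes 0.12 and 0.50. In 40 of the 46 members (87.0%) knockout replicate 2 was above knockout replicate 1, as in 84.7% of all tested genes. The Sm ring went the other way, with medians of 0.02 and -0.05 and 2 of 7 genes above, and all 13 U2 genes and all 7 genes of the Lsm2 to Lsm8 ring followed the majority. Knockout values exceeded both controls for 20 members (43.5%), against 55.5% of all tested genes. Without knockout replicate 1, 16 members were called higher and Snrpe lower. That fit has a single knockout library, which is assumed to vary like the 2 controls. Of all genes tested there, 54.3% were called higher and 4.51% lower. Leaving out any other library gave 0 calls among the members.

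**Figure D3:**
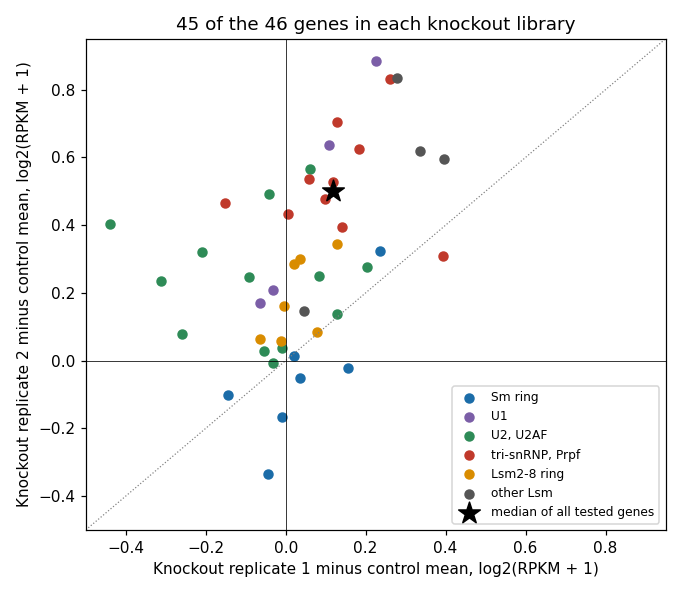
Each point is 1 of 45 of the 46 genes, placed by its log2(RPKM + 1) difference from the control mean in knockout replicate 1 (horizontal) and knockout replicate 2 (vertical); the dotted line marks equal values and the star the medians of all tested genes, 0.12 and 0.50. Of the 45 points 39 lie above the dotted line, and the Sm ring genes gather near or below it.

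Because the median of all tested genes lay above 0, the values were also compared after rescaling the libraries by a trimmed mean of log ratios, which moved the median of all tested genes from 0.31 to 0.01. The members' median then stood at -0.19, with 37 of 46 (80.4%) negative, against 48.0% of all tested genes. All 7 Sm, all 13 U2 and all 7 Lsm2 to Lsm8 genes were negative, whereas 4 of 10 Prpf genes and 3 of the other 4 Lsm genes were positive. These groups also differed in median level, with 147 RPKM for Sm, 40.2 RPKM for U2 and 26.9 RPKM for Lsm2 to Lsm8. For the Prpf and the other Lsm genes it was 14.1 and 13.5 RPKM, so role and level are not separated here. The sign of 27 members turned with the rescaling, so their direction depends on the scaling. Both knockout libraries lay below both controls for 24 members (52.2%), against 26.1% of all tested genes, and above for 6 (13.0%), against 28.4%. No member was called there either, with 1 of 11742 tested genes called higher and 0 lower. The smallest adjusted p of a member was 0.293, for U2af1 (log2 fold change -0.44, SE 0.17).

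The shift of all genes varied with their level. Among the 675 tested genes with a mean of 100 RPKM or more the median log2 fold change was -0.09, and the 6 members there also had -0.09. From 20 to 100 RPKM it was 0.20 for 2160 genes and 0.11 for the 22 members, and from 5 to 20 RPKM 0.35 for 3825 genes and 0.28 for the 15 members. From 1 to 5 RPKM the order was the other way, with 0.34 for 5082 genes and 0.55 for the 3 members. These include Prpf40b, which passed the filter on low values only through the knockouts. After rescaling, both knockouts lay below both controls for 78.1% of the genes at 100 RPKM or more and for 5 of the 6 members there. From 20 to 100 RPKM this held for 45.7% of genes and 16 of the 22 members. From 5 to 20 RPKM it held for 22.1% of genes and 3 of the 15 members, and from 1 to 5 RPKM for 13.9% and 0 of the 3. By length of the longest transcript, genes under 1500 bases had a median of 0.10 and the 10 members there 0.03, and genes from 1500 to 3000 bases 0.34 and the 16 members 0.14. From 3000 to 5000 bases the medians were 0.34 and, for 13 members, 0.23, and from 5000 bases 0.33 and, for 7 members, 0.16. These ranges of level and length were chosen after the values were seen, and what level and length contribute was not tested.

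As a share of each library, the members held 0.474% and 0.491% of recovered reads in control and 0.484% and 0.546% in knockout. The groups overlapped, and the difference of 0.0326 percentage points had an exact permutation p of 0.667, two-sided. The 50 most abundant genes, with 0 members among them, held 35.7% and 35.6% in control and 33.2% and 26.4% in knockout. With these genes left out of the total, the members' share was 0.738% and 0.762% in control and 0.725% and 0.741% in knockout, which turned the difference to -0.0166 percentage points. By role, the Sm ring held 0.142% and 0.146% in control and 0.144% and 0.138% in knockout. The Prpf group held 0.0643% and 0.0622% in control and 0.0729% and 0.0887% in knockout, without overlap. The exact permutation p was 0.333, two-sided, the smallest that this design can give. Gene by gene, both knockouts lay above both controls for 7 of the 10 (70%), against 55.5% of all tested genes. After rescaling this held for 2 of the 10 (20%), against 28.4%.

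**Figure D4:**
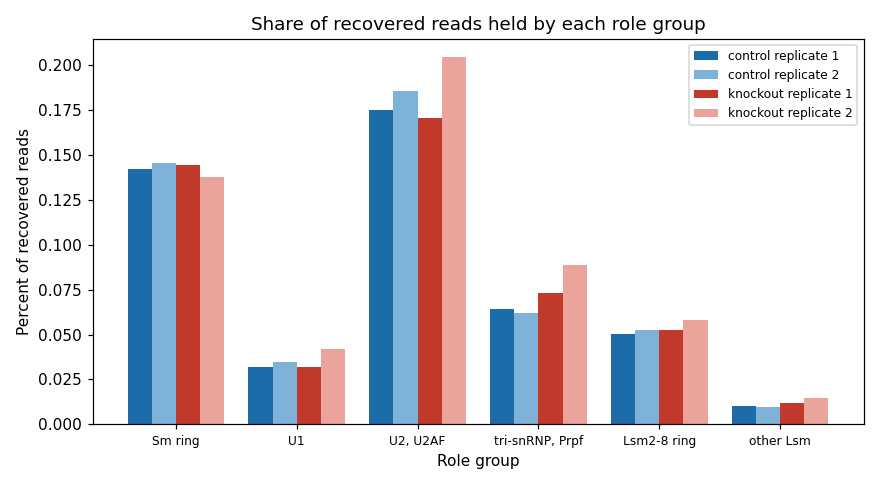
Percent of recovered reads held by each role group in each of the 4 libraries, as bars from 0. The U2 and U2AF group is the largest in every library, and the Sm ring lies between 0.138% and 0.146%.

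Other genes of the splicing pathway were counted from lists by function. None of the 27 other snRNP proteins, 30 proteins of the Prp19 complex and the catalytic steps, 16 SMN complex and Sm methylation genes, 18 SR proteins and their kinases, 24 hnRNP proteins, 11 minor spliceosome proteins or 13 exon junction complex genes was called in either direction, against 3.33% of all tested genes called higher and 0.86% lower. No call was made either for the 9 decapping partners and the 6 U7 and histone processing partners. All 11 minor spliceosome genes had both knockouts above both controls, as had 55.5% of all tested genes. After rescaling 2 of the 11 did so (18.2%, against 28.4% of all tested genes). In the hnRNP list, as deposited, 4 of 24 genes lay above (16.7%, against 55.5%) and 3 below (12.5%, against 7.38%). The medians ran from 0.06 for the hnRNP list to 0.37 for the minor spliceosome list, against 0.31 for all tested genes. The hnRNP list had 21 of 24 genes below that median and the minor spliceosome list 1 of 11. The 2 lists also differed in level, with medians of 36.1 RPKM (hnRNP) and 4.54 RPKM (minor spliceosome). The fold change of all tested genes varied with level too, and what level contributes to this contrast was not tested. The highest single value was Gemin8 of the SMN complex, at 5.75 and 4.68 RPKM in control and 7.08 and 11.9 RPKM in knockout (log2 fold change 0.72, SE 0.32, adjusted p = 0.230). The lowest was Hnrnpa2b1, a splicing regulator, at 313 and 347 RPKM in control and 272 and 256 RPKM in knockout (log2 fold change -0.32, SE 0.16, adjusted p = 0.307). The SR protein Srsf2 had -0.25 (adjusted p = 0.409), the SR kinase Clk1 0.52 (adjusted p = 0.221), and Slbp, which binds the histone mRNA stem loop that the U7 snRNP helps to process, 0.05 (adjusted p = 0.856).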

How the data were processed

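The authors deposited 1 table with a value per gene for 2 control and 2 knockout libraries, and RPKM was identified here as its unit from the values: value times the longest GENCODE M21 transcript was a whole multiple of 1 step for at least 99.36% of values per library (tolerance 0.1). The authors used mm10, per the submitters' processing notes; no aligner or counter was named there (not given in the sources used here). How multiply matching reads were treated is unknown, and 14 members have near-identical annotated copies (at least 95% identity over 200 bases). For 11 of these members a copy is also in the table. Counting is not stated to use strand, so reads of genes that share exon sequence cannot be told apart. Genes without reads stand at 0.001, and each listed gene reaches at least 1.0063 RPKM in some library. A symbol was matched for 12381 gene IDs.

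Differences in log2(RPKM + 1) were tested with limma (version 3.58.1, R 4.3.3), using the trend of variance on level, genotype alone, 2 residual degrees of freedom and Benjamini-Hochberg adjustment over 11742 genes. The prior degrees of freedom were infinite, so the trend replaced each gene's own spread in both SE and p-values. Both are too small where replicates lie apart. The fit was tested on simulated data. Reads of replicates differed beyond sampling noise (chi-square over degrees of freedom 48.1 for the controls, 149.5 for the knockouts).

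Named members were, per role group, the most abundant and those with the highest and lowest fold change, and paralog pairs; of the other lists, called genes or else the highest and lowest. Other members, the ratios and the head-to-head neighbours were added after values were seen. The members and lists were chosen with earlier results of these data known. Values of 1 member are not reported here and it is left out of the figures; it stays in the fits and counts.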

Additional observations from a re-analysis of the deposited data

How the results depend on the processing

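No member was called under any alternative other than leaving out knockout replicate 1. Leaving out each library in turn gave 0 to 16 members called higher and 0 to 1 members called lower, 27 to 6375 genes called higher and 5 to 530 genes called lower. TMM-type rescaling gave 1 and 0 genes called higher and lower, quantile normalization 0 and 0, and voom on rescaled recovered reads 51 and 22. With a mean of at least 5 RPKM, genes called higher were 235, and with no mean-variance trend, genes called lower were 52. The replicate block gave 175 genes called higher and 64 genes called lower, with 0 members. Same-numbered libraries had deviations correlated at 0.0668, and the labels do not say that they share more than a number. This single value cannot show whether they were prepared together. The member median relative to all genes was -0.16, between -0.22 and -0.08 except under quantile normalization (-0.0408). The member share of recovered reads turned to -0.0166 percentage points without the 50 most abundant genes in the total. The log2 fold change of Elane relative to all genes, -1.07, became -0.0142 under quantile normalization. Of 1327 values of single genes under the alternatives, 1055 kept their direction and side of the threshold or moved by less than the replicate spread. With 2 libraries a group, no exact test over libraries can pass the threshold.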
